A study of Mus musculus with 21 samples.

Results

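A set of 10 genes that mark resting microglia by a surface or secreted product was followed across 21 RNA sequencing libraries of primary mouse brain microglia. The genes were picked by name, by a rule that uses no measured value, but with earlier results of these data known. They are Csf1r, Cx3cr1, Selplg, Siglech, Fcrls, Tmem119, Olfml3, Sparc, Golm1 and Crybb1. All 10 were found among the 54532 gene symbols that each of 2 deposited tables lists, and all 10 passed the filter on low values in both. The first table held 12 libraries of microglia from aged and young mice: 3 from aged mice labelled Trem1-/-, 3 from aged wild type, 3 from young mice labelled Trem1-/- and 3 from young wild type. The second held 9 libraries from adult mice: 3 from 5XFAD Trem1+/-, 3 from 5XFAD and 3 from wild type. 5XFAD mice carry human transgenes with familial Alzheimer's disease mutations, expressed in neurons, and develop amyloid plaques. Trem1 encodes a myeloid receptor that amplifies inflammatory signals. Ages are given as the words young, aged and adult, with no number. The sources used here give no isolation method, sort gate or mouse strain, and do not say whether each library stands for an animal of its own.

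Microglia are the resident macrophages of the brain. In the resting state they depend on signals through the receptor encoded by Csf1r and express a set of receptors and secreted proteins, often called homeostatic, that sense neurons, matrix and neighbouring cells. Around amyloid plaques, after injury and in old age this set is known to give way, gene by gene and to different degrees, to a lipid-handling and phagocytic programme.

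Reads assigned to genes numbered 9264999 to 18698707 per library in the adult table and 8600878 to 19411434 in the aging table. Each table was normalized on its own, so levels were compared only within a table. The 10 genes together took 2.11% to 3.12% of all reads of a library, and 24 further homeostatic microglial genes, among them P2ry12 and Sall1, were detected in all 21 libraries. Trem1 itself had 124, 124 and 244 normalized counts in the aged libraries labelled Trem1-/-, against 269, 188 and 237 in aged wild type, a log2 difference of -0.55 ± 0.45 SE (adjusted p = 0.743). In the young pair it had 89.4, 99.8 and 89.5 in the libraries labelled Trem1-/-, against 25.2, 7.65 and 8.74 in young wild type. Trem1 was thus higher in the young libraries with the knockout label (log2 difference 2.85 ± 0.45 SE, adjusted p = 6.22e-04), which goes against that label, and these libraries are called by their label throughout. In the adult table Trem1 had 25.1, 18.1 and 38.3 normalized counts in 5XFAD Trem1+/- and 13.7, 31.99 and 36.8 in 5XFAD, which overlapped (0.03 ± 1.23, adjusted p = 0.997). Which part of the gene is deleted is not given in the sources used here, so these values do not settle any genotype. Each comparison with young libraries, both age comparisons and the interaction included, rests on the labels as given. So does that of aged labelled Trem1-/- with aged wild type, and each with 5XFAD Trem1+/-.

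All values below are normalized counts, and differences are between group means of log2(normalized count + 1), with the standard error (SE) of a limma fit over all genes of a table. A gene is said to have risen or fallen where its Benjamini-Hochberg adjusted p over all genes tested was under 0.05. Whether the libraries of groups overlap is given as description only. The share of all genes with separated groups was not counted in any comparison, so separation adds no support to a difference.

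Per kilobase of exon, Csf1r and Cx3cr1 had the 2 highest levels of the set in adult wild type. Cx3cr1 stood at 19268 ± 1312 and Csf1r at 18801 ± 1327 normalized counts per kilobase (SD, n = 3), a gap smaller than either SD. Tmem119 at 8999 ± 383, Sparc at 8832 ± 288 and Selplg at 8051 ± 212 followed. Fcrls at 5831 ± 460, Siglech at 5276 ± 283, Golm1 at 4435 ± 397 and Olfml3 at 3851 ± 127 came next, and Crybb1 was lowest, at 1510 ± 438. Of the neighbours in this order, Cx3cr1 and Csf1r, Tmem119 and Sparc, and Fcrls and Siglech overlapped between libraries, and the others did not. In 5XFAD, Fcrls had rank 3 at 9250 ± 1664 normalized counts per kilobase, against rank 6 in adult wild type. Siglech had rank 9 at 3822 ± 326 in 5XFAD, against rank 7 in adult wild type. Between 5XFAD libraries Fcrls overlapped Sparc and Tmem119, and Siglech overlapped Golm1, so the exact ranks there are not resolved.

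On the GRCm38 assembly, with GENCODE M21 gene models, the 10 genes lie on 7 chromosomes. Cx3cr1 is at chr9:119901616-120069879 on the minus strand, Csf1r at chr18:61100598-61132149 on the plus strand and Siglech at chr7:55768178-55778925 on the plus strand. Sparc is at chr11:55394500-55423183 and Golm1 at chr13:59634626-59675811, both on the minus strand. Fcrls at chr3:87250758-87263738 and Olfml3 at chr3:103722222-103738001 share a chromosome and the minus strand but lie 16458483 bases apart. Crybb1 is at chr5:112255815-112269585 on the plus strand. Tmem119 at chr5:113793729-113800516 and Selplg at chr5:113818536-113832644 are neighbours on the minus strand, with a gap of 18019 bases that holds 1 annotated gene and no protein-coding one. Exons of Golm1 share 1297 bases with Naa35, and those of Csf1r share 873 bases with Hmgxb3, each on the opposite strand. Strand-specific counting is not stated, so reads from these stretches cannot be assigned to one gene of each pair with certainty. Naa35 and Hmgxb3 reached at most 1536 and 997 normalized counts in any library, where the lowest Golm1 and Csf1r values were 12834 and 80664.

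In aged against young wild type microglia, 6 of the 10 genes fell and none rose. The receptors Siglech, Csf1r and Cx3cr1 fell, as did Fcrls, the secreted matrix protein Sparc and the Golgi membrane protein Golm1. All 10 differences were below 0 (4 of 10 when libraries were scaled to 24 other homeostatic genes, as described after the marker values), with a median of -0.30 on the log2 scale, against -0.01 over all 16086 genes tested. Of all genes tested, 2.24% were called lower, and of the 2960 genes with a mean of at least 1000 normalized counts, the range in which all 10 members lie, 7.5% were. In bulk libraries, fewer microglia and less RNA of these genes per microglial cell cannot be told apart.

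Siglech, a member of the family of sialic acid-binding lectins that signals through the adaptor encoded by Tyrobp, showed the largest fall of the 10. It had 10276, 13632 and 12856 normalized counts in aged wild type, against 19362, 19606 and 19301 in young wild type. Every aged library lay far below every young one, and the young libraries were nearly equal. The log2 difference was -0.67 ± 0.09 (adjusted p = 4.54e-05), so that Siglech fell by 37.4%. This was the only one of the 6 falls that stayed past the threshold in all 16 alternative analyses.

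Golm1, whose product sits in the Golgi membrane and can be cleaved and released, had 14894, 15761 and 14749 normalized counts in aged wild type, against 21796, 20619 and 22818 in young wild type. The groups were well apart, and Golm1 fell by 0.52 ± 0.08 on the log2 scale (adjusted p = 1.58e-04). Fcrls, an Fc receptor-like protein of mouse microglia, had 18219, 17260 and 16986 in aged wild type, against 24024, 21754 and 27932 in young wild type. Aged libraries lay close together below the scattered young ones, and Fcrls fell by 0.48 ± 0.09 (adjusted p = 0.00157).

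The survival receptor Csf1r, which binds the cytokines CSF1 and IL-34, had 102448, 100277 and 102128 normalized counts in aged wild type, against 121551, 116111 and 131848 in young wild type. The aged libraries lay close together and all below the young ones. Csf1r fell by 0.28 ± 0.07 on the log2 scale (adjusted p = 0.0101). For Cx3cr1, the receptor for the neuronal chemokine fractalkine, aged wild type gave 62842, 70391 and 71552 and young wild type 82711, 79857 and 89072. These groups did not overlap either, with a fall of 0.30 ± 0.08 (adjusted p = 0.0132). Sparc, a secreted protein that binds extracellular matrix, had 26472, 23890 and 25967 in aged and 31231, 29395 and 33405 in young wild type, a fall of 0.30 ± 0.08 (adjusted p = 0.0262). The Sparc call was the least secure of the 6: it was lost in edgeR and on leaving out any 1 of 4 libraries, and without replicate 3 of young wild type the calls of Cx3cr1, Csf1r and Sparc all ended. The Cx3cr1 call also ended without replicate 1 of aged wild type, at an adjusted p of 0.0531.

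The other 4 genes did not pass the test. Crybb1, a crystallin best known from the eye lens, ranged from 1348 to 1589 in aged and from 1976 to 2314 in young wild type. Its groups did not overlap, but its difference of -0.48 ± 0.20 had an adjusted p of 0.166. Olfml3, a secreted olfactomedin-like protein, had a log2 difference of -0.21 ± 0.08 (adjusted p = 0.133) with overlapping groups. Tmem119, a membrane protein used widely to tell microglia from other macrophages, spanned 16130 to 21077 in aged and 19731 to 21895 in young wild type. Its difference of -0.15 had a 95% interval from -0.39 to 0.09. Selplg, which encodes the selectin ligand PSGL-1, gave -0.07 with an interval from -0.28 to 0.14. Selplg is also known from neutrophils and monocytes, and its highest value of the table, 40207, came from an aged wild type library. The part of such cells in the Selplg values was not tested.

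**Figure D1:**
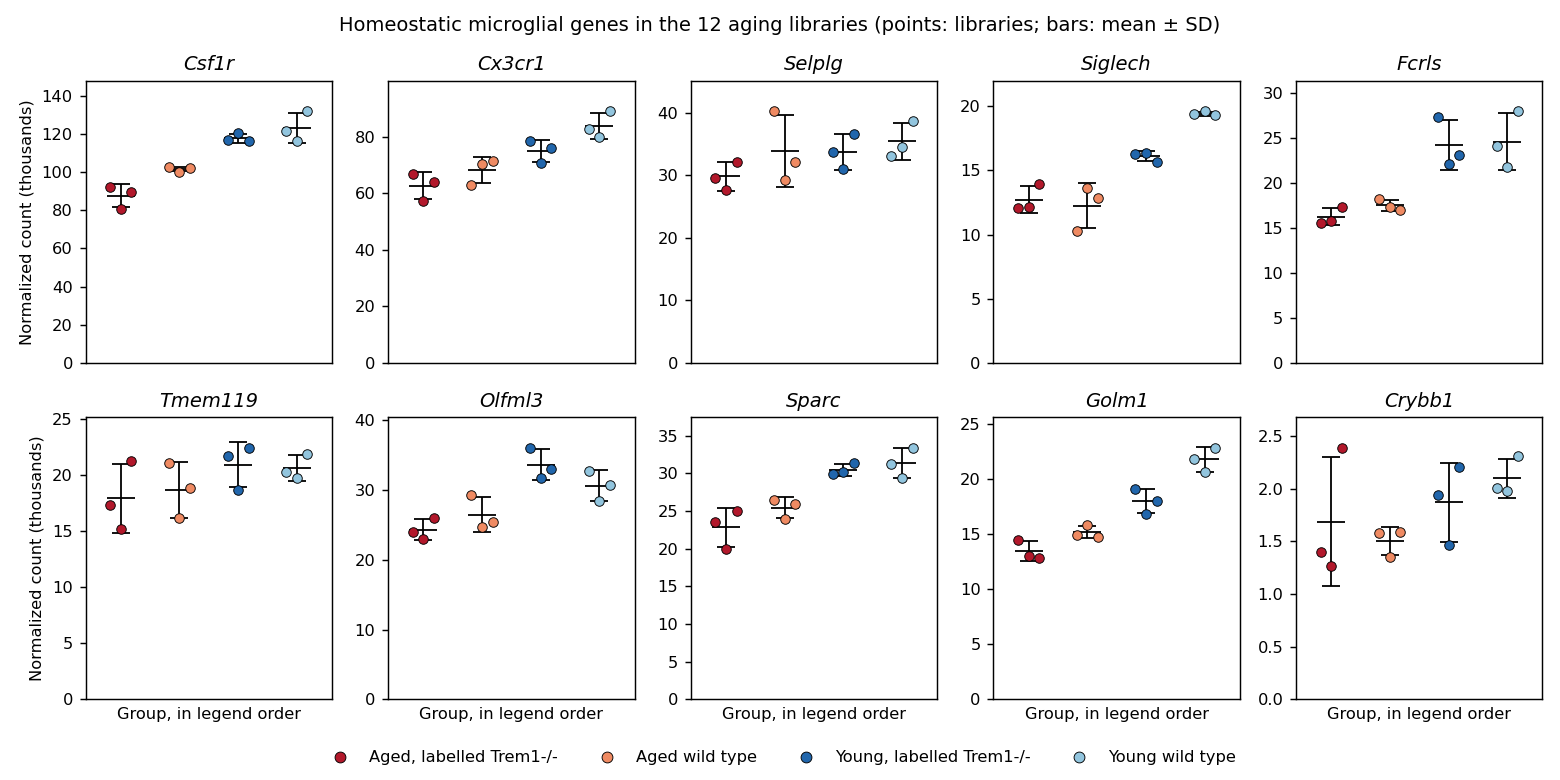
Normalized counts (y axis, in units of 1000, from 0) of the 10 genes in the 12 aging libraries, with 1 point per library and the mean ± SD of the 3 libraries of each group. Siglech lay between 10276 and 13632 in aged wild type, under all young wild type libraries (19301 to 19606), while Selplg and Tmem119 overlapped between ages.

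Markers of other leukocytes moved with age in the same libraries. Of 16 neutrophil markers, 14 rose in aged against young wild type and none fell; their summed normalized count was 85113 to 153539 in aged and 17778 to 26699 in young wild type. No neutrophil marker was at 0 in an aged wild type library, while Elane was at 0 in 2 young ones and Mpo in 1. Of 11 classical monocyte markers tested, 9 rose, with the 12-gene sum at 18432 to 34852 in aged and 2481 to 5281 in young wild type; S100a4 was at 0 in 1 aged and in all 3 young libraries. Of 6 choroid plexus markers, 2 rose, and the sum was 27163 to 44913 in aged and 6072 to 15046 in young wild type, with none at 0. Siglech is also known from plasmacytoid dendritic cells; of their 6 markers 4 were tested and none was called, and Ly6d was at 0 in 2 aged and 3 young libraries. The part of these shifts in the 6 falls was not tested. The rescaling given next is no such test, since it takes out any change that the members share with its reference genes.

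That rescaling centred each library on its mean log2 level of 24 other homeostatic microglial genes. It moved the median of all genes tested by 0.33 in aged against young wild type, and changes are therefore given here against those 24 genes. On their own the 24 had 10 falls and no rise, led by the orphan receptors Gpr165 (-1.68 ± 0.20, adjusted p = 6.60e-06) and Gpr34 (-0.81 ± 0.12, adjusted p = 1.53e-04). The interleukin-10 receptor gene Il10ra (-0.56 ± 0.09, adjusted p = 3.23e-04) and the purinergic receptor gene P2ry12 (-0.49 ± 0.09, adjusted p = 4.92e-04) came next. Against them, 1 of the 10 genes was called: Siglech stayed lower, at -0.35 ± 0.09. Of all 16086 genes 46 were then called lower and 3040 higher. Golm1 at -0.19, Fcrls at -0.16 and Crybb1 at -0.15 were below the 24 genes without passing the test. The direction turned for 4 genes with a 95% interval below 0 before, to 0.03 for Cx3cr1, 0.05 for Csf1r, 0.03 for Sparc and 0.12 for Olfml3, and Selplg stood at 0.26 with an interval from 0.03 to 0.48.

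**Figure D2:**
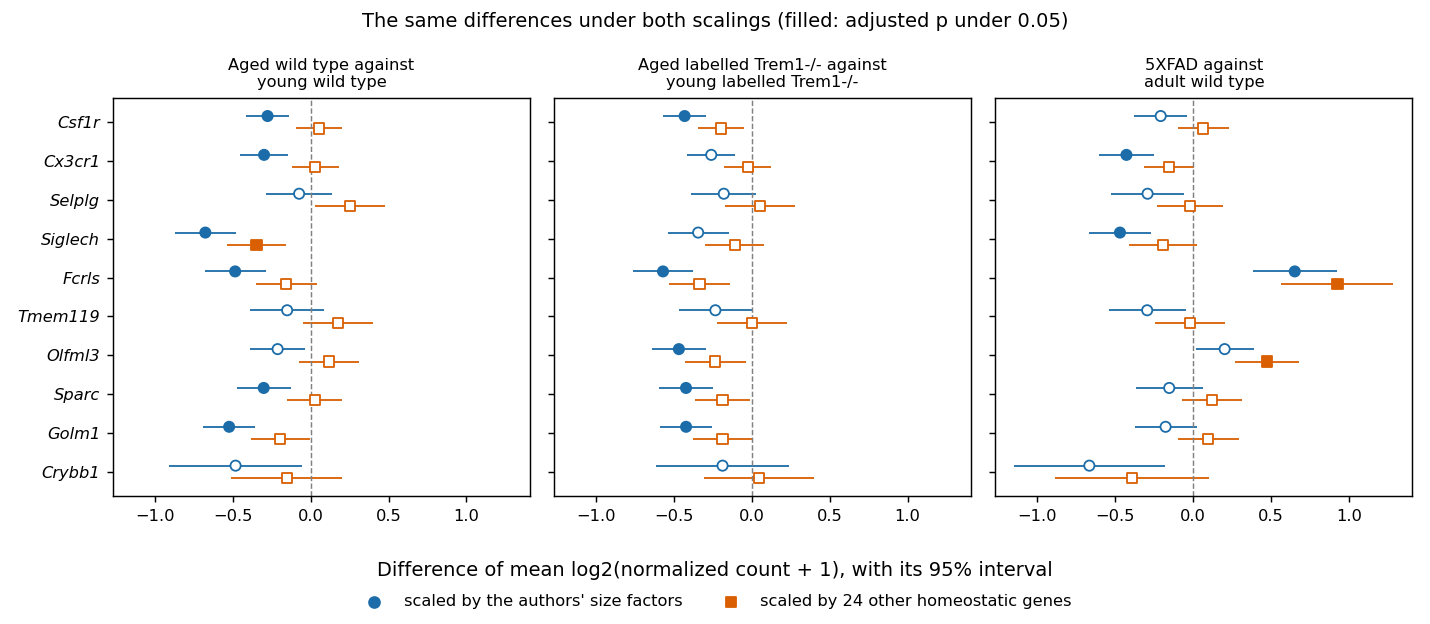
Differences of mean log2(normalized count + 1) on the x axis with 95% intervals for the 10 genes, under the authors' size factors (circles) and against 24 other homeostatic genes (squares); filled symbols had an adjusted p under 0.05. In aged against young wild type only Siglech stayed filled under both, and in 5XFAD against adult wild type Fcrls did.

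Among libraries labelled Trem1-/-, 5 of the 10 genes fell in aged against young mice and none rose. All 10 differences were again below 0 (7 of 10 when scaled to the 24 other homeostatic genes), with a median of -0.38 against 0.00 over all genes, where 0.634% of all genes and 2.91% of genes with a mean of at least 1000 were called lower. Csf1r had 92278, 80664 and 89682 normalized counts in the aged and 116616, 120518 and 116172 in the young labelled libraries. No aged value came near a young one, and Csf1r fell by 0.43 ± 0.07 on the log2 scale (adjusted p = 0.00142). Fcrls fell by 0.57 ± 0.09 (adjusted p = 0.00281), with 15580, 15780 and 17331 in aged and 27317, 22042 and 23095 in young libraries, again with no overlap.

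Olfml3 fell here, by 0.47 ± 0.08 (adjusted p = 0.00475), with 23999, 22988 and 25947 in aged and 36080, 31792 and 32956 in young labelled libraries. Its groups were wide apart, where those of wild type overlapped. Golm1 fell by 0.42 ± 0.08 (adjusted p = 0.00822) and Sparc by 0.42 ± 0.08 (adjusted p = 0.0101), and neither had overlapping groups. The Sparc call ended without replicate 3 of the young or replicate 2 of the aged labelled libraries. Siglech gave -0.34 ± 0.09 (adjusted p = 0.0635) and Cx3cr1 -0.26 ± 0.08 (adjusted p = 0.0783), both without overlap and both short of the threshold. Siglech was called in DESeq2, without the filter on low values and in the fit of only these groups, with adjusted p-values of 0.0368, 0.00642 and 0.0264. Against the 24 other homeostatic genes none of the 10 was called, where Fcrls at -0.33 lay lowest and Tmem119, Selplg and Crybb1 stood at 0.00, 0.06 and 0.05. Of those 24 genes 2 fell, Adgrg1 (-0.39 ± 0.09, adjusted p = 0.0293) and Itgb5 (-0.35 ± 0.09, adjusted p = 0.0444). Among markers of other cells, 1 neutrophil gene, 1 choroid plexus gene and no monocyte gene rose, with neutrophil sums of 70488 to 163147 in aged and 39444 to 79892 in young labelled libraries.

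For none of the 10 genes was the age difference shown to depend on the labelled genotype. In the limma test of the interaction 0 of the 10 genes were called, and edgeR and DESeq2 called none, while 2.54% of all genes were called. An unadjusted p under 0.05 in limma was reached by 2 of the 10 and by 2460 of all 16086 genes. Siglech, which had the larger wild type fall, gave an interaction of 0.33 ± 0.13 (adjusted p = 0.216), and Olfml3, with the larger fall in labelled Trem1-/-, -0.26 ± 0.12 (adjusted p = 0.304). Of the 24 other homeostatic genes limma called 1, Gpr34, above 0 (0.65 ± 0.17, adjusted p = 0.0448). Called below 0 were 5 of 11 monocyte, 2 of 16 neutrophil and 1 of 9 border-associated macrophage markers tested. The part of these markers' cells in the members' values was not tested.

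In young libraries labelled Trem1-/- against young wild type, limma called 0 of the 10 genes, where 2.58% of all genes were called. An unadjusted p under 0.05 in limma was reached by 3 of the 10 and by 1900 of all 16086 genes. Of the 10, edgeR called none and DESeq2 called 1, Golm1. Golm1 had 19031, 16813 and 18021 normalized counts in labelled Trem1-/- and 21796, 20619 and 22818 in wild type. Siglech had 16266, 16352 and 15639 against 19362, 19606 and 19301 in wild type, with a difference of -0.27 ± 0.09 (adjusted p = 0.163). Neither gene overlapped between groups, but the difference of -0.28 ± 0.08 for Golm1 had an adjusted p of 0.0765. Both were called when the fit used only these 2 groups. Olfml3 at 0.14 and Tmem119 at 0.02 were the 2 genes above 0, with 8 below (3 below when scaled to the 24 other homeostatic genes, where the median moved to 0.10). P2ry12 alone of the 24 other homeostatic genes fell (-0.36 ± 0.09, adjusted p = 0.0202). Of the neutrophil markers 4 rose and of the monocyte markers 6 did. The monocyte sums were 14845 to 38091 in labelled Trem1-/- and 2481 to 5281 in wild type, and their part in these differences was not tested.

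Between aged libraries labelled Trem1-/- and aged wild type, no gene in the table was called by limma (0%), 1545 of 16086 had an unadjusted p under 0.05, and edgeR called 0 and DESeq2 23. None of the 10 was called by any of these tools, and 2 had an unadjusted p under 0.05. Csf1r came nearest, at 92278, 80664 and 89682 in labelled Trem1-/- against 102448, 100277 and 102128 in wild type. Those groups did not overlap, and the difference was -0.22 ± 0.07 with an adjusted p of 0.367. Siglech differed by 0.06, with a 95% interval from -0.14 to 0.25. The other 8 genes lay between -0.18 for Golm1 and 0.11 for Crybb1.

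In 5XFAD against adult wild type microglia the set split. Cx3cr1 and Siglech fell, Fcrls rose, and 7 genes did not pass the test. Below 0 were 8 of the 10, all but Fcrls and Olfml3, and 5 of the 10 when scaled to the 24 other homeostatic genes. Among all 17025 genes tested 0.364% were called lower and 1.62% higher, and among the 2968 with a mean of at least 1000, 1.65% lower and 2.49% higher. The median difference of the 10 was -0.25, against 0.00 over all genes.

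Cx3cr1 had 66922, 68750 and 58369 normalized counts in 5XFAD, against 80931, 92747 and 86725 in adult wild type. All 5XFAD libraries lay below all wild type ones, and Cx3cr1 fell by 25.6%, a log2 difference of -0.43 ± 0.08 (adjusted p = 0.0136). Siglech had 14189, 12463 and 12135 in 5XFAD, against 18832, 16923 and 17794 in wild type, again without overlap. It fell by 27.7%, a log2 difference of -0.47 ± 0.09 (adjusted p = 0.0152). Fcrls went the other way, with 19511, 19188 and 26070 in 5XFAD against 12651, 13412 and 14769 in wild type. The lowest 5XFAD library stood well above the highest wild type one, and Fcrls was 57.3% higher, at 0.65 ± 0.13 (adjusted p = 0.0152).

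Olfml3 was higher in every 5XFAD library, at 27135, 26375 and 28499 against 24222, 22822 and 24129 in wild type, but its difference of 0.20 ± 0.09 had an adjusted p of 0.280. Csf1r, at 98580, 95987 and 87637 in 5XFAD and 100340, 115502 and 109833 in wild type, did not overlap either, with -0.21 ± 0.08 (adjusted p = 0.234). Crybb1 showed the lowest value of all, -0.66 ± 0.23 (adjusted p = 0.172), on the fewest reads of the set, at 747, 888 and 1151 in 5XFAD and 1165, 1319 and 1977 in wild type. Golm1 at -0.17 and Sparc at -0.15 had intervals that held 0.

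The 3 calls rested on few libraries. Without replicate 1 of wild type Siglech and Fcrls were no longer called, and without replicate 2 Cx3cr1 and Fcrls were not; with a single prior variance for all genes in place of a trend, and no robust step, none of the 3 was. Against the 24 other homeostatic genes, of which 4 fell and 1 rose, Fcrls stood at 0.93 ± 0.17 and Olfml3 at 0.48 ± 0.10 and both were called, while Siglech at -0.19 and Cx3cr1 at -0.15 were not. That scaling moved the median of all genes by 0.27, and Csf1r, Golm1 and Sparc turned to 0.07, 0.10 and 0.12. Under it 859 of 17025 genes were called higher and 7 lower, against 275 and 62 otherwise. Among the 24, Gpr165 (-1.65 ± 0.27, adjusted p = 0.00562), the ectonucleotidase gene Entpd1 (-0.53 ± 0.10, adjusted p = 0.0118) and P2ry13 (-0.58 ± 0.13, adjusted p = 0.0344) fell, and the protease inhibitor gene Serpine2 rose (0.59 ± 0.13, adjusted p = 0.0272).

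**Figure D3:**
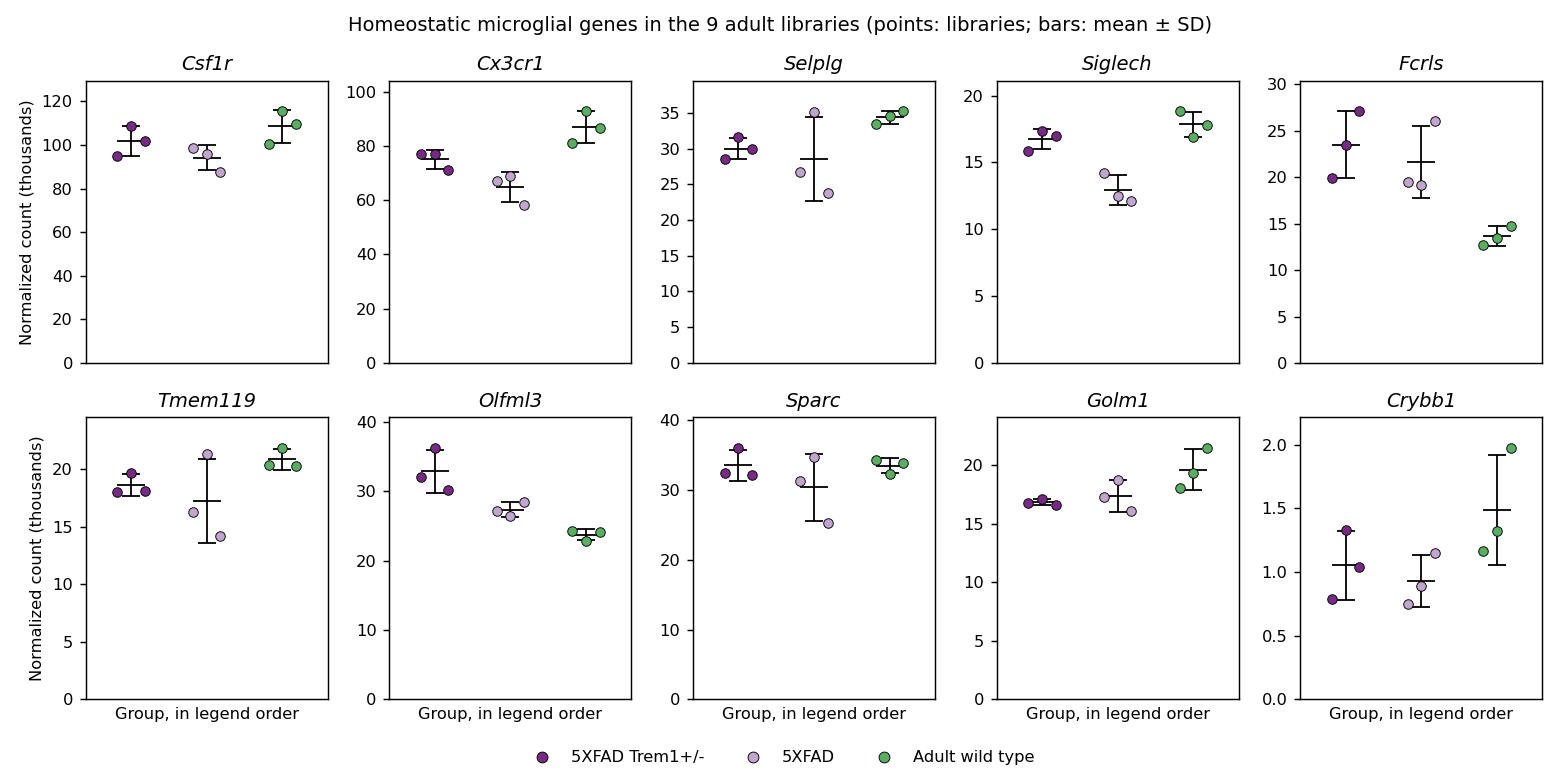
Normalized counts (y axis, in units of 1000, from 0) of the 10 genes in the 9 adult libraries, with 1 point per library and the mean ± SD of the 3 libraries of each group. Fcrls lay between 19188 and 26070 in 5XFAD and between 12651 and 14769 in adult wild type, and Cx3cr1 between 58369 and 68750 in 5XFAD and between 80931 and 92747 in adult wild type.

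Other cells' markers differed between these groups too. Of 8 astrocyte markers 3 rose in 5XFAD, with sums of 5087 to 7934 in 5XFAD and 3242 to 4314 in wild type, where Gja1 was at 0 in 1 library. Of 8 neuronal markers 7 were tested and none was called, with sums of 253 to 563 in 5XFAD and 90.2 to 129 in wild type, where 5 were at 0 in 1 library. Of 6 choroid plexus markers 1 rose, with sums of 15088 to 82013 in 5XFAD and 2328 to 6606 in wild type, where Folr1 and Aqp1 were at 0 in 1 library. No neutrophil or monocyte marker was called; neutrophil sums were 22107 to 31539 in 5XFAD and 14324 to 59123 in wild type, and monocyte sums 2133 to 8935 in 5XFAD and 947 to 8055 in wild type. Sparc and Olfml3 are known from other brain cells as well, and the part of these shifts in the members' values was not tested.

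The promoters of the 2 genes that stood higher in all 5XFAD libraries and of the 2 that fell, chosen for those values, are given as RefSeq sequence on GRCm38.p6 from 250 bases before to 50 after the start, 5′ to 3′ on the gene's strand. Capitals mark AGGAAG or its reverse complement CTTCCT, the core that the myeloid factor PU.1 binds.
Fcrls, minus strand, chr3:87263475-87263774: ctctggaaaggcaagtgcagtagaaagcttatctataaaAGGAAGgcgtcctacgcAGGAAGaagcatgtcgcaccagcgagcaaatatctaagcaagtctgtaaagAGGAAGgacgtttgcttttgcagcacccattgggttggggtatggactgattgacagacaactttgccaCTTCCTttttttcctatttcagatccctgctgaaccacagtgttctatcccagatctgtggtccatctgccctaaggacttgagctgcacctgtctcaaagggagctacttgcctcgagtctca
Olfml3, minus strand, chr3:103737952-103738251: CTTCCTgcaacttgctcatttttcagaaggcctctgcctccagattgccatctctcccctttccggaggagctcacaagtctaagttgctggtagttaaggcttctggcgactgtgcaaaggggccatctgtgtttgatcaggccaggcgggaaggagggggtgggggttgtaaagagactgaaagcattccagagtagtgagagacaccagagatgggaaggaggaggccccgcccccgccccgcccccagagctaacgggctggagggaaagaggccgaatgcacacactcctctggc
Siglech, plus strand, chr7:55767934-55768233: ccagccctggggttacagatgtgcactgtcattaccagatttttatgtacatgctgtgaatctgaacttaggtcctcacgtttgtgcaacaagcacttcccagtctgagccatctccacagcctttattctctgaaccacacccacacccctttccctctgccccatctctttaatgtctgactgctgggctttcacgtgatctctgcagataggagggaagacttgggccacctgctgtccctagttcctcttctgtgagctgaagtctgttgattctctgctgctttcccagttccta
Cx3cr1, minus strand, chr9:120068247-120068546: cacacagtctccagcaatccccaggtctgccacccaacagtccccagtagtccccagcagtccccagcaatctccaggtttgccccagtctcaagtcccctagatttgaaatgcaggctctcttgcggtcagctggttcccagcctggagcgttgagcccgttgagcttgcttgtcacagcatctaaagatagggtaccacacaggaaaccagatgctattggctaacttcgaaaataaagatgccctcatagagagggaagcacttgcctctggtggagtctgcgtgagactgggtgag
A promoter window was at hand for 7 of the 10 genes. AGGAAG, searched on both strands, occurred at 4 positions of the Fcrls window (-211, -194, -143 and -74 from the start) and at 1 of that of Olfml3 (-250), and in none of the other 5 windows. Of 32851 mouse promoter windows of this length 35.35% hold it, so 2 of 7 is near that share. The longer PU.1 motif GAGGAAGT, which contains the core, was in 0 of the 7 and in 3.202% of all windows. The letters CCAAT were in 4 of 7 and in 37.41% of all, and TATAAA was in 3 of 7 and in 13.62% of all. These matches describe letters in a window and no binding was measured.

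5XFAD Trem1+/- libraries, compared with the same 3 adult wild type libraries, showed 2 rises and no fall. Fcrls had 19890, 23418 and 27080 normalized counts in 5XFAD Trem1+/- and Olfml3 had 32112, 36298 and 30213, all above every wild type library. Fcrls rose by 0.78 ± 0.13 on the log2 scale (adjusted p = 0.00361) and Olfml3 by 0.47 ± 0.09 (adjusted p = 0.00724), where 2.04% of all genes and 3.98% of genes with a mean of at least 1000 were called higher. Olfml3 was no longer called without replicate 2 of wild type or replicate 2 of 5XFAD Trem1+/-. Cx3cr1, at 77018, 77168 and 70934 in 5XFAD Trem1+/-, lay below all wild type libraries, with -0.21 ± 0.08 (adjusted p = 0.212). Siglech, at 15894, 17318 and 16980, overlapped wild type, with -0.09 and a 95% interval from -0.29 to 0.10. The other 6 genes lay between -0.49 for Crybb1 and 0.00 for Sparc, and none was called. Astrocyte sums were 4970 to 6270 and choroid plexus sums 18342 to 103528 in 5XFAD Trem1+/-, against the wild type ranges above, and 2 and 1 of these markers rose. Of the plasmacytoid dendritic cell markers 2 of 4 tested rose, with Ly6d at 0 in all 3 libraries of 5XFAD Trem1+/- and all 3 of wild type, and sums of 3244 to 3692 in 5XFAD Trem1+/- and 3665 to 4982 in wild type. Against the 24 other homeostatic genes, of which Serpine2 alone changed (0.81 ± 0.13, adjusted p = 0.00252), Fcrls stood at 0.88 ± 0.17 and Olfml3 at 0.57 ± 0.10, and both were called. Under that scaling 484 of 17025 genes were called higher and 69 lower. This comparison and that of 5XFAD share their wild type libraries, so the 2 are given side by side and not as independent findings.

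Set directly against 5XFAD, 5XFAD Trem1+/- libraries had 0 of the 10 genes called by limma, and 0% of all genes were called. Of 17025 genes 883 had an unadjusted p under 0.05, and edgeR called 0 and DESeq2 12, none of them among the 10. An unadjusted p under 0.05 was reached by 3 members, Siglech, Olfml3 and Cx3cr1, and in each of these all 5XFAD Trem1+/- libraries lay above all 5XFAD libraries. The share of all genes with groups separated in this way was not counted, so the separation adds no support to these differences. Siglech differed most, by 0.37 ± 0.09 with a 95% interval from 0.18 to 0.57 (adjusted p = 0.693). Olfml3 differed by 0.26 ± 0.09 (adjusted p = 0.863) and Cx3cr1 by 0.22 ± 0.08 (adjusted p = 0.931). Fcrls, at 0.12 with an interval from -0.15 to 0.39, overlapped between the groups. Without the filter on low values, limma called Siglech, Olfml3 and Cx3cr1 higher.

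**Figure D4:**
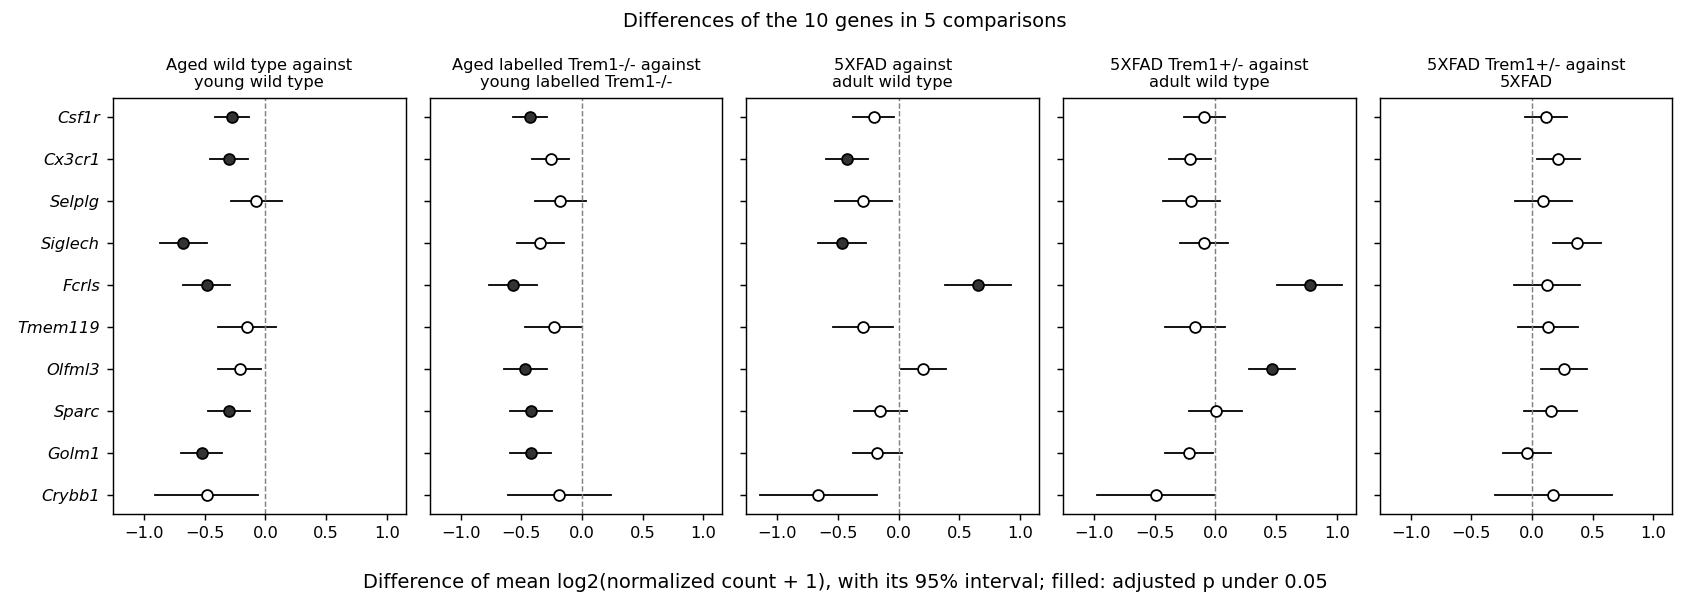
Differences of mean log2(normalized count + 1) on the x axis, with 95% intervals, for the 10 genes in 5 comparisons; filled points had an adjusted p under 0.05. All 10 points lie below 0 in both age comparisons (4 and 7 when scaled to 24 other homeostatic genes), and in both comparisons with adult wild type Fcrls and Olfml3 lie above 0, at 0.65 and 0.20 in 5XFAD and at 0.78 and 0.47 in 5XFAD Trem1+/-.

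Tmem119 and Selplg, the chromosomal neighbours, varied together in the adult table, as did other pairs of the set. Over the 9 adult libraries their log2 values had a correlation of 0.978, the highest of the set. Tmem119 also reached 0.837 with Sparc and 0.808 with Cx3cr1. Over the 12 aging libraries the neighbours had 0.846, below 0.870 for Tmem119 and Crybb1 and 0.965 for Csf1r and Sparc. In 5XFAD, Tmem119 had 16263, 21285 and 14183 normalized counts and Selplg 26647, 35069 and 23799. Replicate 2 of 5XFAD was high for both, at the level of wild type, and the other two lay below every wild type library. The quotient of the 2 normalized counts, not corrected for length, stayed between 1.58 and 1.74 over the 9 adult libraries, while Tmem119 itself ranged from 14183 to 21855. Over the 12 aging libraries the quotient ran more widely, from 1.51 to 1.91. Neither gene was called in 5XFAD against wild type, at -0.29 ± 0.12 for Tmem119 and -0.29 ± 0.11 for Selplg (adjusted p = 0.243 and 0.224). Scaled to the other homeostatic genes, limma gave -0.02 for Tmem119 and -0.02 for Selplg (adjusted p = 0.946 and 0.951). Among fits with a library left out, only that without replicate 2 of 5XFAD, the library high for both, called them lower, at -0.46 and -0.45. That library also had the highest Sparc value of its group, 34672, against 31203 and 25241, and was the shallowest of the table, at 9264999 reads. The part of depth in its values was not tested.

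**Figure D5:**
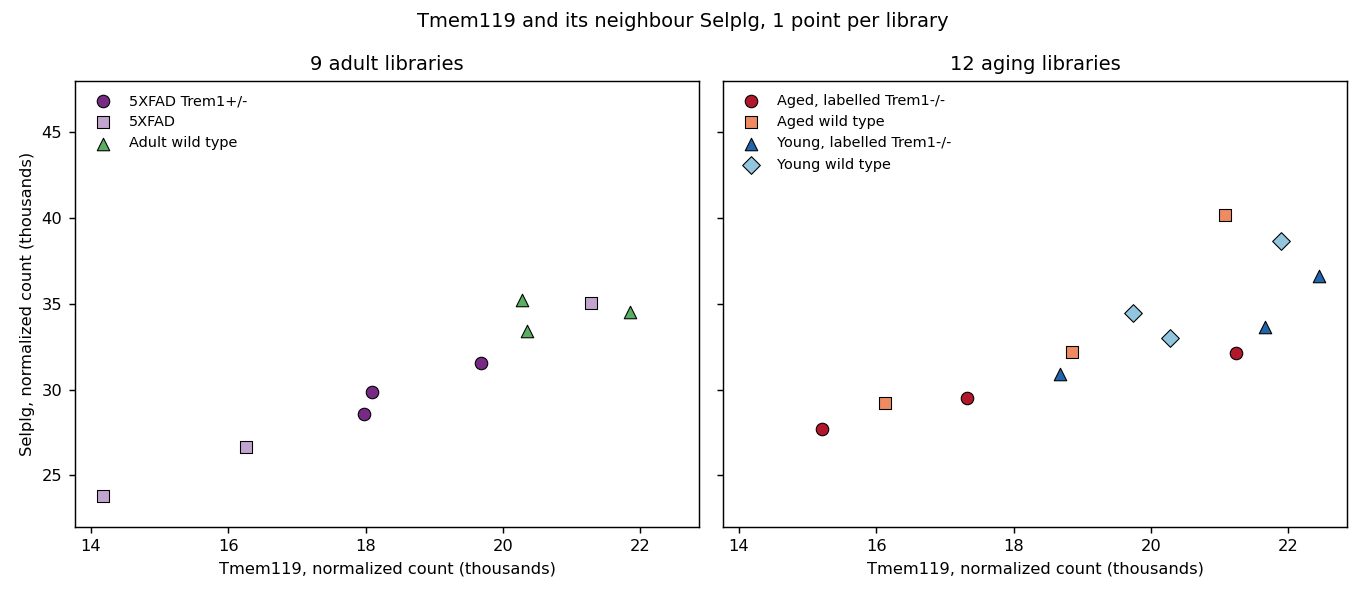
Normalized counts, in units of 1000, of Tmem119 (x axis) and Selplg (y axis), 1 point per library, for the 9 adult (left) and 12 aging libraries (right); axes do not start at 0. In the left panel 1 of the 3 5XFAD libraries, with 21285 and 35069, lies among the adult wild type libraries and the other two lie lowest.

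Partners of these receptors were followed as well. Csf1, a ligand of Csf1r, rose by 2.03 ± 0.22 on the log2 scale in 5XFAD (adjusted p = 5.85e-05), with 1306, 1752 and 1186 normalized counts in 5XFAD and 262, 432 and 348 in adult wild type. The 5XFAD and wild type libraries did not overlap, and the rise in 5XFAD Trem1+/- was 1.98 ± 0.22 (adjusted p = 4.76e-05). In aged against young wild type Csf1 rose by 1.15 ± 0.23 (adjusted p = 0.00168), and in aged against young labelled Trem1-/- it differed by 0.09 ± 0.23 (adjusted p = 0.896). The interaction of age and labelled genotype was not called for Csf1, at -1.06 ± 0.32 (adjusted p = 0.081). Between young libraries, labelled Trem1-/- stood 0.59 ± 0.23 above wild type (adjusted p = 0.229). Il34, the other Csf1r ligand, known from neurons, was at 0 in all 12 aging libraries. Cx3cl1, which encodes fractalkine and is likewise known from neurons, reached at most 71.1 normalized counts in any library. Tyrobp, the signalling adaptor of Siglech, rose in 5XFAD (0.75 ± 0.16, adjusted p = 0.0224) and in 5XFAD Trem1+/- (1.02 ± 0.16, adjusted p = 0.00267). Csf1 and Tyrobp are also among 22 genes of the plaque-associated microglial programme, of which 14 rose in 5XFAD, 16 in 5XFAD Trem1+/- and 11 in aged against young wild type, where 1 fell. In aged against young labelled Trem1-/-, 3 rose and 1 fell, and the interaction called 1 of the 22, below 0. Of all 16086 genes, 1034 were called higher with age in wild type and 173 in labelled Trem1-/-.

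The genes most like the set were found by the correlation of each of 9591 genes with the mean profile of the 10, taking the smaller of its values over the 12 aging and over the 9 adult libraries. Vsir, which encodes an immune checkpoint receptor of myeloid cells, came first at 0.918, followed by the ubiquitin protease gene Usp2 at 0.860, Serinc3 at 0.860, Itpripl1 at 0.858 and the ribonuclease gene Rnase4 at 0.833. These values describe libraries that share groups, depth and normalization, and Vsir is itself 1 of the 24 other homeostatic genes.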

How the data were processed

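The submitters' processing notes name fastp, HISAT2 2.0.5, featureCounts 1.5.0-p3, DESeq2 1.20.0 and GRCm38. Per the labels, total RNA came from an RNeasy mini plus kit and sequencing libraries from a NEBNext Ultra kit. The annotation release and strand setting are not given in the sources used here. The authors' deposited per-library values are a signal on the scale of reads: each is a whole number of reads times a constant of its library, and is called a normalized count here. Reads were recovered with that constant, came out whole within 0.05 read for 99.9956% or more of the values above 0 in every library, and entered edgeR and DESeq2.

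Genes averaging at least 10 normalized counts (16086 in the aging table, 17025 in the adult one) entered limma 3.58.1 under R 4.3.3, on the log2 scale after adding 1, with trended and robust variance estimates. Each table was fitted whole, all its groups together. Symbols matched GENCODE M21 for 53749 of 54532. Alternatives were pseudocounts of 0.5 and 5, no filter, TMM, scaling to 24 other homeostatic genes, edgeR 4.0.16, DESeq2 1.42.0, limma with neither trend nor robust step, the compared groups alone, a replicate block, and each library left out. The code was tested on simulated data.

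The members, gene lists and tests were chosen with earlier results of these data known. The rule for named genes took in all 10 members, Trem1, at most 4 called genes of the list of 24, partners of the receptors, and the 5 genes most like the set. Replicates differed by more than sampling noise. Since separate animals are not stated, p-values measure only the spread between these samples. An exact permutation test of 3 against 3 libraries cannot go below 0.1, so none was used.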

Additional observations from a re-analysis of the deposited data

How the results depend on the processing

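Scaled to 24 other homeostatic genes, the number of the 10 members called was 1 in place of 6 in aged against young wild type and 0 in place of 5 in labelled Trem1-/-. The direction turned, where the 95% interval had not held 0, for Cx3cr1 (0.0302), Csf1r (0.0527), Olfml3 (0.117) and Sparc (0.0280) with age in wild type, for Cx3cr1 in young labelled Trem1-/- (0.00764) and for Csf1r in 5XFAD (0.0677). Under that scaling 98.5% of all called genes were higher in aged wild type, against 74.2% otherwise, 99.2% against 62.9% in aged labelled Trem1-/-, 99.2% against 81.6% in 5XFAD, and 87.5% against 73.4% in 5XFAD Trem1+/-. Its median shift was 0.33 and 0.23 for age in wild type and labelled Trem1-/-, 0.17 for young labelled Trem1-/-, 0.27 for 5XFAD, 0.11 for 5XFAD Trem1+/- against wild type and -0.17 against 5XFAD; under TMM, edgeR and DESeq2 no median moved by over 0.05.

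Without trend and robust steps, limma called 2 members with age in wild type and 0 with age in labelled Trem1-/-, in 5XFAD and in 5XFAD Trem1+/- against wild type. Without the filter it called 2 in young labelled Trem1-/- (0 otherwise), 7 in 5XFAD (3), 3 in 5XFAD Trem1+/- against 5XFAD (0) and 4 against wild type (2). In young labelled Trem1-/-, DESeq2 called 1 and the fit of only the groups compared 2. The cause of these differences was not tested. Leaving out 1 library gave 3 to 6 calls with age in wild type, 4 to 5 in labelled Trem1-/-, 1 to 5 in 5XFAD and 1 to 2 in 5XFAD Trem1+/- against wild type. Of all genes, alternatives called 581 to 3086 with age in wild type (1394 in the analysis reported), 12 to 605 in labelled Trem1-/- (275), 97 to 678 in young labelled Trem1-/- (415), 5 to 787 for the interaction (408), 32 to 866 in 5XFAD (337) and 27 to 1061 in 5XFAD Trem1+/- (473).

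For most same-numbered libraries little shared deviation was seen. The correlation of their deviations had a median of 0.01 over 18 pairs in the aging and 0.01 over 9 pairs in the adult table. It was over 0.1 in 0 and 1 pairs. That 1 pair was replicate 1 of 5XFAD and of 5XFAD Trem1+/-, at 0.20. Replicates 2 and 3 of these groups gave 0.06 and 0.08, and their different-numbered pairs ran from -0.13 to 0.06. A replicate block gave 7 calls with age in wild type, 7 in labelled Trem1-/-, 4 in 5XFAD, 2 in 5XFAD Trem1+/- against wild type and 0 in the other 4 comparisons; those gained were Crybb1 with age in wild type and in 5XFAD, and Siglech and Cx3cr1 with age in labelled Trem1-/-. Of 1330 recomputed member values, 39 lost a call without turning direction, 26 gained one and 6 turned direction as given above; 47 more with an interval holding 0 changed sign. Group size, 3 libraries each, limits the precision, and the part of depth in it was not tested.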
